A study of Rattus norvegicus with 200 samples.

Results

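The comparison described here sets light-feeding against ad libitum feeding in male Wistar rats on a high-fat diet (HFD), in libraries taken in the light phase. Every rat in it was wild type and ate HFD. In the light-feeding group food was given in the light phase only, and in the ad libitum group it was always present. Members were taken from the labels by diet, schedule and Zeitgeber time (ZT, hours after lights on): the 16 HFD light-feeding and 16 HFD ad libitum libraries at ZT2, ZT6 and ZT10, 32 of the 200 libraries of the series. The full study crossed chow and HFD with ad libitum, dark-feeding and light-feeding, over 6 times of day, in RNA from cells isolated as microglia, the resident macrophages of the brain. Where they bear on a result, 17 HFD dark-feeding libraries of the same times, 35 dark-phase libraries of the same HFD groups and 33 light-phase chow libraries are set beside it. Whether every library stands for its own rat is not stated in the labels. The p-values are therefore about the scatter among libraries, part of which may be technical. Symbols are those of the deposited tables.

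Rats are nocturnal, so light-feeding places meals in the rest phase. Inside cells the circadian clock runs as a loop in which CLOCK and BMAL1 (the product of Arntl) switch on the Per and Cry genes, whose products then repress them, while Nr1d and Ror proteins act on Arntl. Peripheral tissues are known to set this loop by meal time, insulin, glucocorticoids and body temperature. Heat shock chaperones are induced through heat shock factor HSF1 as temperature or protein damage rises, and Cirbp and Rbm3 encode RNA-binding proteins induced by mild cold.

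Ad libitum libraries held 5.28 to 10.78 M counts (median 7.55 M) and light-feeding libraries 4.82 to 11.37 M (median 7.72 M). Titles in the series hold a running number whose meaning the labels do not give, with a separate series of numbers for each diet. At ZT2 the 6 ad libitum libraries had numbers 23 to 28 and the 5 light-feeding libraries 70 to 93. At ZT6 the ranges were 29 to 45 and 77 to 103, again without overlap. At ZT10 the ad libitum numbers ran from 37 to 137, with 3 of 5 above 46, and the light-feeding numbers from 84 to 113. Schedule and anything that followed the running number therefore cannot be told apart at ZT2 and ZT6 from these groups alone. Dark-feeding libraries, all numbered above 46 as the light-feeding ones were (47 to 135), gave a comparison within the later numbers. One ad libitum library at ZT6, title number 45, stood apart with a score of 56.8 on the first principal component of the residuals, where the next farthest of the 32 scored -21.8.

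Microglial markers were present in all groups, but so were markers of other brain cells. At ZT2 the summed level of 22 homeostatic microglia markers had a median of 2270 counts scaled to library size (CPM) in ad libitum and 1760 CPM in light-feeding libraries. The 13 markers of mature oligodendrocytes summed to medians of 15800 and 19500 CPM, and the 15 neuronal markers to 3800 and 3870 CPM. The 10 markers of cerebellar granule neurons summed to medians of 7020 and 7050 CPM. In such bulk RNA, fewer cells of a type and less RNA per cell cannot be told apart. Nor can changes in genes that are not specific to a cell type be assigned to microglia.

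With time as a factor, 1375 of 14139 genes with a mean of at least 1 CPM differed between light-feeding and ad libitum (9.72% called by edgeR's quasi-likelihood test at a Benjamini-Hochberg adjusted p under 0.05). Of these, 790 were higher (5.59%) and 585 lower (4.14%) under light-feeding, and 73 reached 1.5-fold. Taken alone, ZT2 gave 2189 called genes (15.5%), 1152 higher (8.15%) and 1037 lower (7.33%), of which 417 reached 1.5-fold. ZT6 alone gave 0 called genes (0%) and ZT10 alone 0 (0%), with 1641 and 420 genes at an unadjusted p under 0.05, while DESeq2 called 204 and 1 and limma on FPKM values called 1 at ZT6. Without ZT2, the pooled count fell from 1375 to 1 gene. Without the ad libitum library numbered 45, ZT6 gave 163 called genes. A test of whether the difference itself changed between the 3 times called 48 genes (0.339%). On FPKM values tested with limma, the pooled split was 553 higher and 578 lower, and the ZT2 split 804 higher and 978 lower, so the excess of higher genes in the counts did not hold on that scale.

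Of 19 core clock genes tested, 8 rose and 0 fell at ZT2 (15.5% of all genes called), with a median log2 fold change (log2FC) of 0.26 against 0 over all genes. Per1, a repressor of the clock loop that also responds directly to hormonal signals, stood at 241, 195, 246, 255 and 201 CPM in the 5 light-feeding libraries at ZT2. The 6 ad libitum libraries lay between 108 and 135 CPM with a median of 113.5, so the groups did not overlap. Over all 14139 genes, 9.17% had groups that did not overlap at ZT2, 4.9% with light-feeding above and 4.26% with it below. The means were 228 ± 27.2 (SD, n = 5) and 116 ± 9.92 CPM (SD, n = 6), a log2FC of 0.97 (standard error, SE, 0.08; adjusted p = 8.66e-07). At ZT6 its log2FC was -0.19 (SE 0.12) and at ZT10 0.27 (SE 0.20), neither called. The difference between the 3 times passed its test (adjusted p = 0.00862), and over the 3 times together Per1 was not called (log2FC 0.35, adjusted p = 0.0548).

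Per2, the paralogue of Per1, measured 235, 242, 241, 175 and 200 CPM under light-feeding at ZT2. In ad libitum libraries it ranged from 85.3 to 161 CPM with a median of 112, again without overlap (log2FC 0.87, SE 0.16, adjusted p = 0.00624). Cry1, the other arm of the repressor complex, measured 34.2, 38.8, 35.2, 33.1 and 40.6 CPM against 16.0 to 21.4 CPM (median 19.5). All 5 light-feeding libraries lay above all 6 ad libitum libraries (log2FC 0.93, SE 0.09, adjusted p = 5.96e-06). The Cry1 difference depended on time (adjusted p = 0.017), being 0.23 (SE 0.12) at ZT6 and 0.29 (SE 0.11) at ZT10. It was called over the 3 times together (log2FC 0.50, SE 0.08, adjusted p = 0.000394), as was Per2 (log2FC 0.45, SE 0.10, adjusted p = 0.00718).

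The other clock genes called at ZT2 moved less. Ciart, a repressor of CLOCK and BMAL1, rose by a log2FC of 0.60 (SE 0.15), Nr1d1 by 0.39 (SE 0.07) and Nr1d2 by 0.32 (SE 0.07). Both Nr1d genes encode repressors of Arntl, whose own log2FC was -0.27 (SE 0.11), not called. Tef, an output transcription factor of the clock, rose by 0.32 (SE 0.06) and Rora, an activator of Arntl, by 0.32 (SE 0.10). Dbp, another clock output, had a log2FC of 0.18 (SE 0.08) at ZT2 and -0.43 (SE 0.10) at ZT6, neither called. Over the 3 times 5 of the 19 rose and 0 fell, namely Cry1, Per2, Rora, Tef and the Cry1 paralogue Cry2 (log2FC 0.12, SE 0.04).

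**Figure D1:**
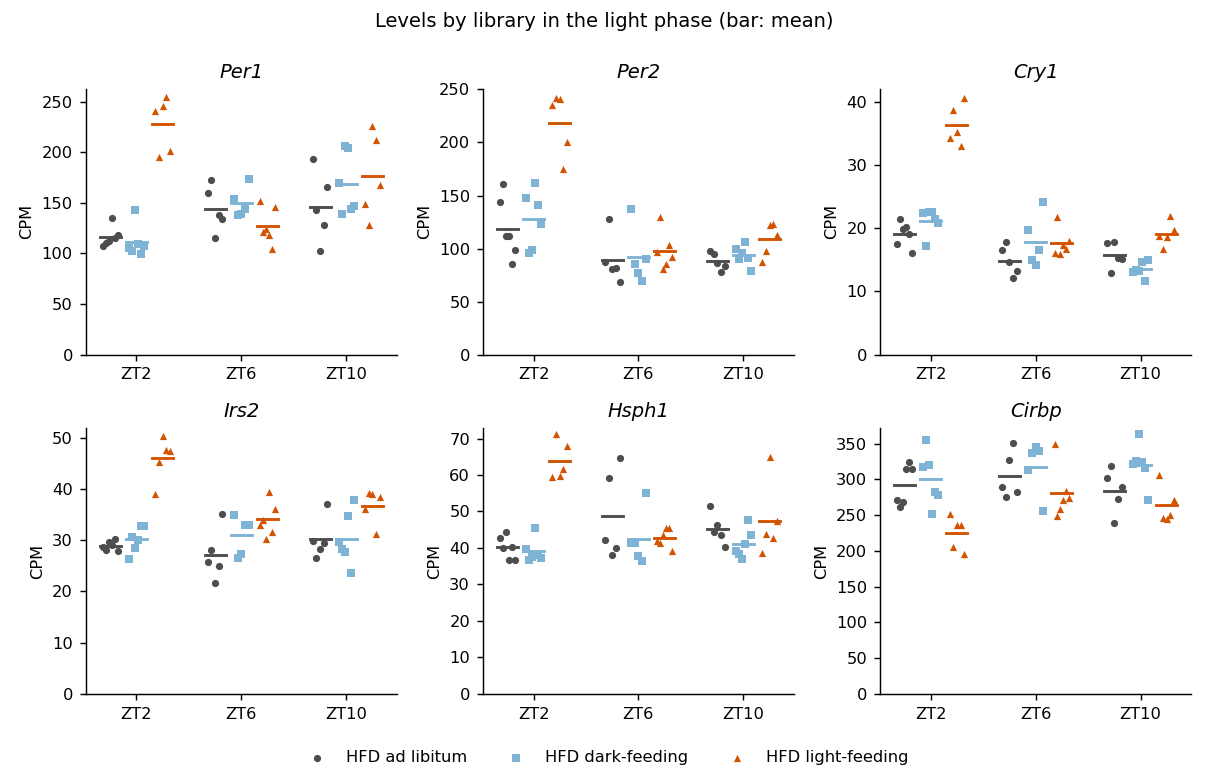
CPM (y axis, from 0) of Per1, Per2, Cry1, Irs2, Hsph1 and Cirbp in each library at ZT2, ZT6 and ZT10 (x axis), with ad libitum as grey circles, dark-feeding as blue squares, light-feeding as orange triangles and each mean as a bar. At ZT2 the 5 light-feeding libraries stand above both other groups for Per1 (195 CPM or more against at most 143 CPM), while at ZT6 the 3 groups overlap.

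Dark-feeding libraries at ZT2 had running numbers on both sides of the light-feeding ones, but none among them. They can therefore check a steady trend with number, and not something particular to the light-feeding numbers. The comparison with dark-feeding shares its light-feeding libraries with the one against ad libitum, and at single times it was chosen after seeing the data. Per1 in the 6 dark-feeding libraries at ZT2 lay between 99.2 and 143 CPM with a median of 106. The log2FC of light-feeding against dark-feeding at ZT2 was 1.03 (SE 0.10) for Per1, 0.77 (SE 0.14) for Per2 and 0.78 (SE 0.09) for Cry1. Dark-feeding against ad libitum gave -0.07 (SE 0.08), 0.10 (SE 0.18) and 0.15 (SE 0.09), none called. Against dark-feeding 10 of the 19 clock genes rose and 1, Arntl, fell (14% of all genes called, 6.51% higher and 7.48% lower). Dark-feeding against ad libitum at ZT2 called 1 gene in all (0.00707%).

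The light-feeding libraries at ZT2 were also split by running number. Of 14139 genes, the 3 libraries numbered up to 90 gave 2113 called against ad libitum, 1072 higher and 1041 lower. The 2 numbered above 90 gave 1722, 962 higher and 760 lower. With the 3 libraries numbered up to 90, Per1 had a log2FC of 0.97 (SE 0.08) and Cry1 0.92 (SE 0.10). With the 2 numbered above 90 they were 0.97 (SE 0.09) and 0.93 (SE 0.11), all called. Per2 was called with the former (1.01, SE 0.18) and not with the latter (0.64, SE 0.24).

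Of all 14139 genes 1152 rose and 1037 fell at ZT2. Of 18 heat shock genes tested, chaperones and their regulator Hsf1, 10 rose and 0 fell at ZT2, with a median log2FC of 0.25. The other 8, Hsf1 (0.11) among them, were not called, and 4 of them lay below 0. Hsph1, an Hsp110 chaperone that recharges Hsp70, measured 59.5, 71.1, 59.7, 61.6 and 68.0 CPM under light-feeding and 36.7 to 44.5 CPM (median 40.2) in ad libitum libraries. The groups did not overlap (log2FC 0.67, SE 0.07, adjusted p = 1.3e-05), and the value against dark-feeding was 0.71 (SE 0.08). Dnajb1, the Hsp40 partner of Hsp70, averaged 23.1 ± 3.50 CPM (SD, n = 5) against 14.6 ± 1.09 CPM (SD, n = 6), also without overlap (log2FC 0.66, SE 0.10, adjusted p = 0.000376). Hspa8, the constitutive Hsp70, rose by 0.50 (SE 0.11, adjusted p = 0.00771), with 1 light-feeding library (292 CPM) inside the ad libitum range of 237 to 312 CPM. Chordc1, a co-chaperone of Hsp90, rose by 0.43 (SE 0.12), Dnaja1 by 0.41 (SE 0.09) and Hsp90ab1, a cytosolic Hsp90, by 0.36 (SE 0.105). These 6 genes were singled out after their values were seen.

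The Hsph1 difference depended on time (adjusted p = 0.0206), with a log2FC of -0.20 (SE 0.13) at ZT6 and 0.08 (SE 0.12) at ZT10. Over the 3 times together 0 of the 18 rose and 1 fell, Hspe1, the mitochondrial co-chaperonin (log2FC -0.46, SE 0.12). Against dark-feeding at ZT2 9 of the 18 rose and 0 fell, where 921 of all 14139 genes rose and 1057 fell. Each of the 2 parts of the light-feeding group split by running number called 7 higher and 0 lower against ad libitum. Over all 14139 genes these parts called 1072 and 962 higher.

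HSF1 binds repeats of a GAA unit in alternating orientation, and the promoters of the 18 heat shock genes were read for a 13-base motif of GAA, TTC and GAA with 2 bases of any kind between the units, on either strand, in the RefSeq sequence of build GRCr8 from 250 bases before to 50 after the start. Of the 10 genes that rose at ZT2, all with a promoter in the table, 5 held the motif: Hspa8, Hsph1, Hspd1, Dnaja1 and Chordc1. Of the 8 not called, 5 had a promoter and 1, Hspe1, held it. Among all 33469 promoters of that length 267 held it (0.798%). A match describes letters only and says nothing of binding in these cells. The windows below show, 5′ to 3′ on the gene's strand, 60 bases of the promoters of 3 genes that rose, with the motif in capitals. They lie at chr12:10427308-10427367 (plus strand) for Hsph1, chr8:50080278-50080337 (plus strand) for Hspa8 and chr9:64084228-64084287 (minus strand) for Hspd1, whose capitals cover 2 overlapping matches.
Hsph1: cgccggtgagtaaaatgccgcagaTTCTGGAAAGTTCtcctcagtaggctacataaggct
Hspa8: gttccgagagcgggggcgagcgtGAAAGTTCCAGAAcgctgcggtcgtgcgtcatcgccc
Hspd1: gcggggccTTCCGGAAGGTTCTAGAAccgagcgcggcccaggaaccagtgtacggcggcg
In Hsph1 the motif begins 36 bases before the start and in Hspa8 the first of 2 matches begins 213 bases before it. Hspd1, the mitochondrial chaperonin, rose by 0.23 (SE 0.07) at ZT2, less than Hsph1 and Hspa8.

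Both cold-inducible genes moved the other way. Cirbp measured 251, 205, 237, 236 and 196 CPM under light-feeding at ZT2 and 261 to 324 CPM (median 292.5) in ad libitum libraries. Rbm3 measured 174, 126, 122, 168 and 155 CPM against 182 to 214 CPM (median 191). In both genes every light-feeding library lay below every ad libitum library, with a log2FC of -0.38 (SE 0.08, adjusted p = 0.00293) for Cirbp and -0.40 (SE 0.09, adjusted p = 0.00577) for Rbm3. Against dark-feeding the values were -0.42 (SE 0.09) and -0.38 (SE 0.09), both called. At ZT6 Rbm3 was also lower in all 6 light-feeding than in all 5 ad libitum libraries (159.6 to 206.1 against 214.2 to 233.5 CPM), as 2.08% of all genes were without overlap at ZT6. Its log2FC there was -0.27 (SE 0.07), not called. Both fell over the 3 times together, Cirbp by 0.20 and Rbm3 by 0.25 on the log2 scale.

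**Figure D2:**
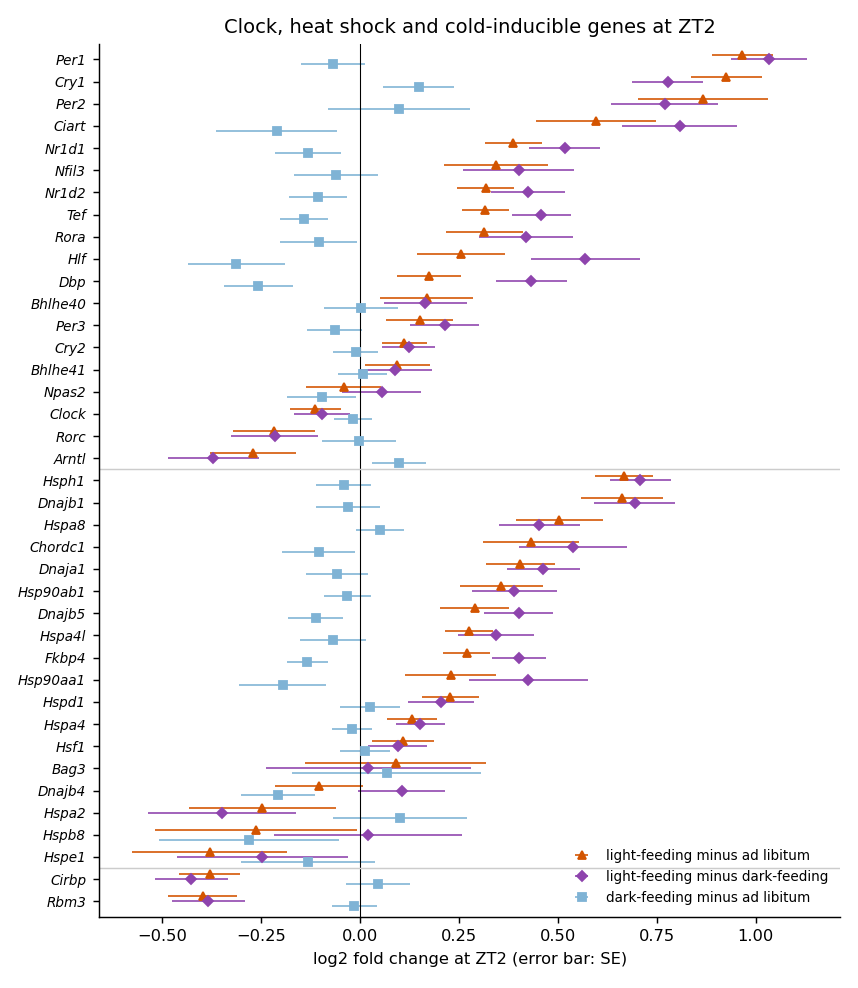
Log2 fold changes at ZT2 (x axis, with SE bars) of 19 core clock genes, 18 heat shock chaperones and 2 cold-inducible genes (y axis, separated by lines), for light-feeding against ad libitum (orange triangles), light-feeding against dark-feeding (purple diamonds) and dark-feeding against ad libitum (blue squares). The orange and purple values, which share the light-feeding libraries, lie near 1 for Per1, while the blue value is -0.07.

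Genes of insulin and FOXO signalling rose as well. Of 22 tested, 7 rose and 0 fell at ZT2 (median log2FC 0.17), where 1152 of all 14139 genes rose and 1037 fell. Over the 3 times 6 of the 22 rose and 0 fell (median 0.09), where 790 of all genes rose and 585 fell. Irs2, an adaptor of the insulin receptor that FOXO factors switch on when insulin is low, measured 39.1, 45.3, 50.4, 47.6 and 47.5 CPM at ZT2 under light-feeding. The ad libitum libraries lay between 27.9 and 30.3 CPM with a median of 28.9, so the groups were apart (log2FC 0.67, SE 0.07, adjusted p = 1.3e-05). Over the 3 times Irs2 had the smallest adjusted p of all genes (log2FC 0.43, SE 0.06, adjusted p = 0.000107). Irs1, the related adaptor, rose by 0.80 (SE 0.17) at ZT2 and by 0.56 (SE 0.11) over the 3 times. At ZT6 its 6 light-feeding libraries (5.35 to 8.96 CPM) lay above the 5 ad libitum ones (3.84 to 4.35 CPM), with an adjusted p of 0.114, which became 0.0355 without the library numbered 45. At ZT10 Irs1 had a log2FC of 0.03 (SE 0.16). Foxo3 itself rose by 0.54 (SE 0.12) at ZT2, and Bcl6, a transcriptional repressor, by 0.74 (SE 0.09).

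Running number moved with some of these genes in the ad libitum group alone. Ad libitum libraries numbered above 46 were compared with those numbered up to 46, with time as a factor, in all 34 HFD ad libitum libraries, 6 of which were numbered above 46 (8.81% of all genes called, 5.71% higher and 3.1% lower). In that comparison Irs1 was higher by 0.49 (SE 0.14), Irs2 by 0.31 (SE 0.09) and Rora by 0.30 (SE 0.08), all called. Cirbp was lower (-0.21, SE 0.06) and Hspa4l, an Hsp110 chaperone, higher (0.39, SE 0.07), both called and both of the same sign as under light-feeding at ZT2. Hspa4l was the 1 heat shock gene called of 18, and Rbm3 (-0.07, SE 0.08) was not called. Per1 (-0.26, SE 0.09), Per2 (-0.07, SE 0.14), Cry1 (0.21, SE 0.09) and Hsph1 (0.08, SE 0.13) were not called. At ZT10 Irs1 measured 5.53 and 5.16 CPM in the ad libitum libraries numbered 37 and 39 and 7.52, 7.27 and 8.24 CPM in those numbered 114, 136 and 137, against 5.94 to 7.96 CPM under light-feeding.

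Of 15 glucocorticoid response genes 7 rose and 0 fell at ZT2 (median log2FC 0.10), while 7 had values below 0. Of all 14139 genes 1152 rose and 1037 fell at ZT2. Over the 3 times 2 of the 15 rose and 1 fell (median 0.07). Pdk4, a kinase that turns cells from glucose towards fat oxidation, measured 3.40, 1.72, 2.73, 3.78 and 3.42 CPM against 0.689 to 1.27 CPM (median 0.90) in ad libitum libraries. Its levels were low but the groups did not overlap (log2FC 1.65, SE 0.26, adjusted p = 0.000456). Sgk1, a kinase induced by glucocorticoids, rose by 0.69 (SE 0.155), Klf9, a transcription factor, by 0.43 (SE 0.10) and Fkbp5 by 0.39 (SE 0.09). Against dark-feeding Pdk4 rose by 1.61 (SE 0.26), Sgk1 by 0.69 (SE 0.14) and Klf9 by 0.46 (SE 0.13), while Fkbp5 (0.28, SE 0.09) was not called. Pdk4 and Fkbp5 were singled out after their values were seen.

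Chaperones of the endoplasmic reticulum (ER) also rose at ZT2, 7 of 18 with 0 falling (median log2FC 0.24), where 1152 of all 14139 genes rose. Xbp1, a transcription factor of the unfolded protein response, rose by 0.63 (SE 0.08), Herpud1, a factor of ER protein degradation, by 0.50 (SE 0.07) and Pdia4, a disulphide isomerase, by 0.39 (SE 0.07). This list moved with running number as well: in ad libitum libraries 9 of the 18 were higher and 0 lower above number 46. Against dark-feeding at ZT2 2 of the 18 rose and 0 fell (median 0.06), where 921 of all 14139 genes rose. The part of running number in the ER result was not tested further.

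Large changes at ZT2 also lay outside these lists. Spry4, an inhibitor of growth factor signalling to ERK, measured 10.8, 15.9, 13.3, 12.1 and 15.0 CPM against 3.20 to 5.58 CPM (median 4.64) in ad libitum libraries. It rose by 1.54 (SE 0.15, adjusted p = 5.55e-06) against ad libitum and by 1.82 (SE 0.14) against dark-feeding. Eomes, a T-box transcription factor, rose by 1.27 (SE 0.14), with all light-feeding libraries above all ad libitum ones. Nes, which encodes the intermediate filament nestin, fell by 1.45 on the log2 scale (SE 0.15, adjusted p = 1.3e-05). It measured 5.52, 3.91, 4.68, 3.86 and 2.98 CPM against 9.54 to 13.6 CPM (median 11.3). Among genes whose difference changed most clearly between times, Diexf, Banp, Gatsl2 and Cct3 rose at ZT2 by 0.76, 0.79, 0.70 and 0.71 and lay between -0.12 and 0.14 at ZT6 and ZT10. Cct3 is a subunit of the cytosolic chaperonin. Slc25a36, a mitochondrial carrier, and Ubxn2b fell at ZT2 by 0.31 and 0.52 on the log2 scale. For Slc25a36 all light-feeding libraries lay below all ad libitum ones at ZT2 and above them at ZT6. Over all genes 4.26% lay below in this way at ZT2 and 1.1% above at ZT6. For Ubxn2b the groups overlapped at ZT6 and ZT10.

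Homeostatic microglia markers were lower at ZT2. Of 21 tested, 0 rose and 11 fell (median log2FC -0.42), and of 14 complement genes 1 rose and 6 fell (median -0.33). Of all 14139 genes 1152 rose and 1037 fell at ZT2. Csf1r, the receptor that microglia need to survive, measured 225, 170, 190, 268 and 256 CPM under light-feeding and 283 to 336 CPM (median 306) in ad libitum libraries, with no overlap (log2FC -0.48, SE 0.10, adjusted p = 0.00446). Irf8, a transcription factor of the macrophage lineage, measured 30.6, 23.3, 21.5, 36.4 and 29.0 CPM against 40.7 to 49.9 CPM (median 46.9). It fell by 0.70 on the log2 scale (SE 0.11, adjusted p = 0.000671). Aif1, which encodes the microglial protein IBA1, fell by 0.79 (SE 0.16) and Cx3cr1, the fractalkine receptor, by 0.45 (SE 0.12), both on the log2 scale. P2ry12 (-0.41, SE 0.17) and Tmem119 (-0.31, SE 0.12) were not called. Against dark-feeding at ZT2 11 of the 21 fell (median -0.44), where 1057 of all 14139 genes fell. Dark-feeding against ad libitum called 0 of the 21 (median 0.10).

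The size of this difference varied inside the light-feeding group. With the 3 light-feeding libraries numbered up to 90, 19 of the 21 markers fell (median -0.67), and with the 2 numbered above 90, 4 fell (median -0.16). Over all 14139 genes these fits called 1041 and 760 lower, and the unequal number of libraries also bears on such counts. Csf1r shifted from -0.67 (SE 0.08) to -0.25 (SE 0.07) between these parts, while heat shock genes had medians of 0.25 and 0.26. The summed microglia level at ZT2 ran from 1410 to 2120 CPM under light-feeding, from 2060 to 2410 CPM in ad libitum and from 2080 to 2620 CPM in dark-feeding libraries. Summed oligodendrocyte markers ran from 12900 to 21300, 14600 to 18700 and 15100 to 23700 CPM in the same groups, and their part in the microglia result was not tested. Over the 3 times together 4 of the 21 microglia markers fell and 0 rose, and 2 without the library numbered 45.

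**Figure D3:**
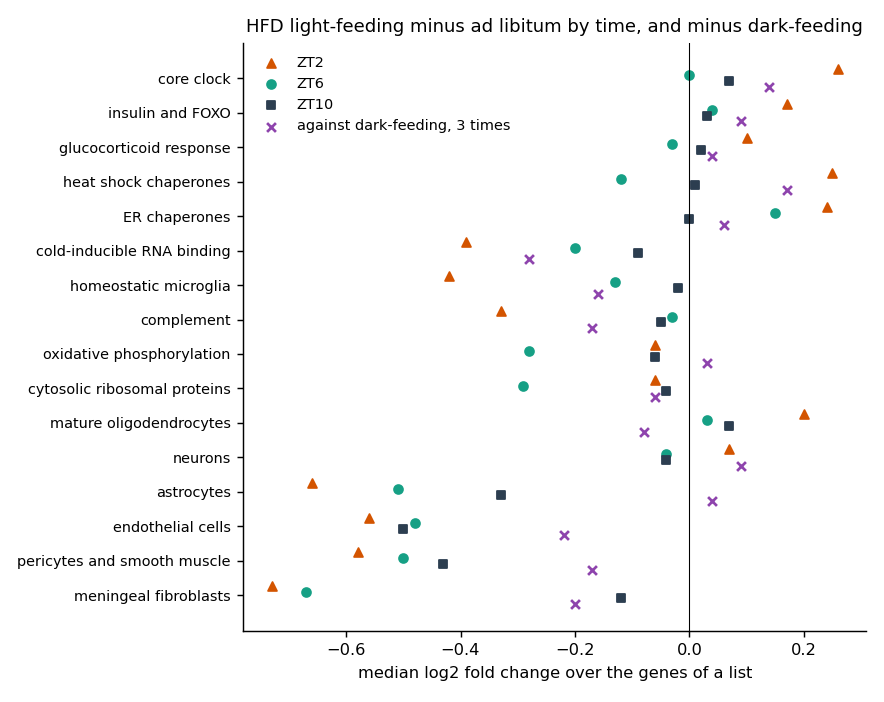
Median log2 fold change over the genes of 16 lists (y axis) for light-feeding against ad libitum at ZT2 (orange triangles), ZT6 (green circles) and ZT10 (dark squares), and against dark-feeding over the 3 times (purple crosses). Core clock and heat shock medians are 0.26 and 0.25 at ZT2 and between -0.12 and 0.07 later, whereas the astrocyte median is -0.66, -0.51 and -0.33 at the 3 times and 0.04 against dark-feeding.

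Marker lists of astrocytes and of vessel and meningeal cells had medians below 0 at each of the 3 times. Over the light phase 10 of 16 astrocyte markers fell and 0 rose (median log2FC -0.52), with 7 of 12 endothelial markers (median -0.52), 5 of 8 of pericytes and smooth muscle (median -0.47) and 7 of 10 of meningeal fibroblasts (median -0.56). Of all 14139 genes 790 rose and 585 fell. Gfap, the intermediate filament of astrocytes, fell by 0.72 on the log2 scale (SE 0.18, adjusted p = 0.0113), and Cldn5, a tight junction protein of brain endothelium, also by 0.72 (SE 0.20, adjusted p = 0.0178). Igf2, a growth factor made by meninges and vessels, fell by 0.67 (SE 0.17) and Col1a2, a fibrillar collagen, by 0.77 (SE 0.22), the latter the most negative of the genes named over the 3 times.

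These lists moved with running number inside the ad libitum group. At ZT10 Gfap measured 168 and 99.5 CPM in the ad libitum libraries numbered 37 and 39 and 52.1, 52.8 and 33.7 CPM in those numbered 114, 136 and 137. The light-feeding libraries at ZT10 measured 38.5, 38.1, 38.3, 58.6 and 80.4 CPM, 3 of them inside the range of the later ad libitum libraries and 2 above it. Cldn5 followed the same pattern, with 19.5 and 12.8 CPM against 5.68, 7.15 and 4.57 CPM. Across the ad libitum group, libraries numbered above 46 had 7 of 16 astrocyte markers lower (median -0.60). They had 7 of 12 endothelial markers lower (median -0.73), with 0 of either list higher. Inside the light-feeding group the medians went the other way. There, light-phase libraries numbered above 90 against those up to 90 had medians of 0.39 for astrocyte and 0.4 for endothelial markers. The medians were 0.14 for pericytes and smooth muscle and 0.21 for meningeal fibroblasts, with 0 markers of these lists called. Against dark-feeding, whose numbers were all above 46, 0 of 16 astrocyte markers were called over the 3 times (median 0.04; 14.6% of all genes called, 8.08% higher and 6.54% lower) and 1 of 12 endothelial markers fell (median -0.22). With the mean marker level of astrocytes, endothelial cells, oligodendrocytes and neurons as 4 covariates, Gfap had a log2FC of -0.04 and Cldn5 of 0.02, neither called, but both are themselves among the genes so averaged. Cry1 was still called in that fit (0.55, SE 0.09). Dark-feeding against ad libitum called 5 of 16 astrocyte markers lower (median -0.51; 0.509% of all genes called).

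Pclo, a scaffold protein of the presynaptic active zone, had the largest increase among the genes named over the 3 times. It also moved with running number inside the ad libitum group. It measured 283, 469, 457, 330 and 404 CPM at ZT2 against 146 to 206 CPM, and rose by 0.83 (SE 0.13, adjusted p = 0.00045) over the 3 times. At ZT10 it measured 120 and 138 CPM in the ad libitum libraries numbered 37 and 39, 279, 305 and 310 CPM in the later ones, and 268 to 381 CPM under light-feeding. Above number 46 it was higher by 0.78 (SE 0.13) within ad libitum. Unlike Gfap, it was also higher than in dark-feeding libraries, by 0.80 (SE 0.14) over the 3 times and 1.07 (SE 0.24) at ZT2.

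The remaining genes of largest increase over the 3 times were Yif1b, a protein of ER to Golgi transport (log2FC 0.83, SE 0.25), Prf1, the pore-forming perforin of cytotoxic lymphocytes (0.80, SE 0.24), Sowahb (0.62), Pigm, a mannosyltransferase of GPI anchor synthesis (0.53), Sowaha (0.53), Mab21l2 (0.51) and Kbtbd7 (0.51). Of these 7, Sowahb, Sowaha, Mab21l2 and Kbtbd7 were also higher than in dark-feeding libraries (0.57, 0.46, 0.60 and 0.55), and Sowahb, Sowaha and Kbtbd7 rose with running number within ad libitum (0.69, 0.61 and 0.64). Prf1 was the 1 gene called of 14 T and NK cell markers over the 3 times (median log2FC -0.08, 7 of them below 0). Its light-feeding and ad libitum libraries overlapped at each time. Among the genes of largest decrease, Vwf, the von Willebrand factor of endothelium, fell by 0.70 on the log2 scale and was lower than in dark-feeding libraries too (-0.48, SE 0.14). Slc1a2, the main astrocyte glutamate transporter, Slco1a2, an organic anion transporter, and the endothelial receptor Adgrf5 each fell by 0.65, and Pcp4, a calmodulin regulator of neurons, by 0.69. None of these 4 was called against dark-feeding over the 3 times (values between -0.31 and -0.03).

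Immune lists other than microglia gave different counts against each control group at ZT2. Of 14 T and NK cell markers 0 were called against ad libitum (median log2FC -0.40), and 9 fell against dark-feeding (median -1.11). Of 14 MHC class II genes 2 fell against ad libitum and 7 against dark-feeding (medians -0.19 and -0.97). Summed T and NK markers lay between 36.8 and 64.5 CPM in light-feeding, 37.6 and 92.4 CPM in ad libitum, and 64.2 and 152 CPM in dark-feeding libraries. Dark-feeding against ad libitum called 0 genes of either list, with medians of 0.74 and 0.65. Blood and border cell markers also fell against dark-feeding, where 1057 of all 14139 genes fell. These were 5 of 7 of red blood cells, 3 of 4 of B cells, 3 of 4 of neutrophils and 5 of 7 of border-associated macrophages, with 0 rising. Summed red blood cell markers had medians of 132 CPM in light-feeding, 158 CPM in ad libitum and 243 CPM in dark-feeding libraries. The part of blood in these results was not tested.

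**Figure D4:**
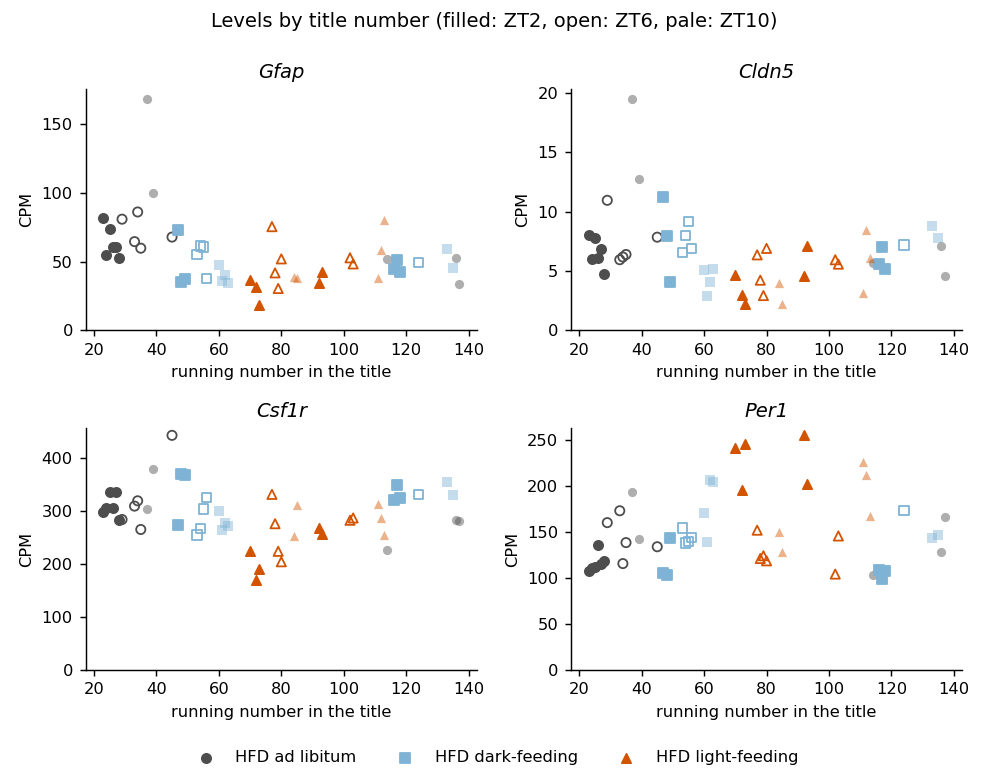
CPM (y axis, from 0) of Gfap, Cldn5, Csf1r and Per1 against the running number in the title (x axis), for ad libitum (grey circles), dark-feeding (blue squares) and light-feeding (orange triangles), with ZT2 filled, ZT6 open and ZT10 pale. Gfap and Cldn5 in the ad libitum libraries numbered 114 and above lie below those numbered 37 and 39, while Per1 at ZT2 is at 195 CPM or more in light-feeding libraries and at most 143 CPM in dark-feeding libraries on both sides of them.

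Over all genes, 1246 were called between later and earlier numbers within ad libitum (808 higher, 438 lower). The 12 of these libraries at ZT14 and ZT18, none of which enters the light-phase comparison, gave 356 called genes (2.52%, with 1.56% higher and 0.955% lower). At ZT10 alone, 3 against 2 ad libitum libraries gave 896 called genes (6.34%, with 2.86% higher and 3.48% lower). Of the 356 genes called at ZT14 and ZT18, 99 were also among the 1375 genes of the light-phase comparison, 27.8% of the former and 7.2% of the latter. Of the 1375 genes, 82% had the same sign at ZT14 and ZT18, against 61.8% of all genes tested. Within the light-feeding group, numbers above 90 against those up to 90 gave 0 called genes by edgeR and by DESeq2, with 642 at an unadjusted p under 0.05. With the number as a linear covariate, 0 genes were called between schedules and 1063 had an unadjusted p under 0.05. The number nearly separated the schedules, with 13 of 16 ad libitum libraries up to 46 and all 16 light-feeding libraries from 70 to 113. Number and schedule can therefore hardly be told apart in that fit.

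At ZT6 no gene passed, and the genes of smallest p were Pclo (log2FC 0.92, SE 0.16), Irs1 (0.82, SE 0.15), Guk1, a guanylate kinase (-0.67, SE 0.11), and Tceal3 (-0.80, SE 0.14). The 73 tested genes of oxidative phosphorylation had a median log2FC of -0.28 at ZT6, -0.06 at ZT2 and -0.06 at ZT10. Without the ad libitum library numbered 45 the ZT6 median was -0.15. Over the 3 times 1 of the 73 rose and 16 fell (median -0.15, and -0.10 without library 45), where 790 of all 14139 genes rose and 585 fell. Against dark-feeding 7 of the 73 rose and 0 fell (median 0.03), where 1142 of all 14139 genes rose and 924 fell. The share of the list that rose was thus near that of all genes. Dark-feeding against ad libitum over the 3 times called 0 higher and 3 lower (median -0.18), where 72 of 14139 genes were called. Genes were ordered by the transcript length implied by CPM over FPKM, each with 0.1 added. The shortest 1414 genes had a median log2FC of -0.19 at ZT6 and the longest 1413 a median of 0.08. Transcript length was not tested as a part of the oxidative phosphorylation result. At ZT10 no gene passed either, and light-feeding against dark-feeding at ZT10 called 2 genes (0.0141%). Rbm14, an RNA-binding coactivator, had a log2FC of 0.45 (SE 0.11), Zfp536 0.25 (SE 0.07), Tceal3 -0.70 (SE 0.16) and the haemoglobin gene Hba2, whose reads can be shared with its copies, -0.98 (SE 0.22). Among the 6 ZT10 libraries numbered above 100, 3 of each schedule, 0 genes were called by edgeR and 966 had an unadjusted p under 0.05. Per2 there had a log2FC of 0.55 (SE 0.08) and Per1 0.61 (SE 0.19), neither called.

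The same schedules were also compared in the dark phase. Dark-phase light-feeding against ad libitum called 1901 genes (13.4%), 847 higher and 1054 lower. Of 19 clock genes 1 rose and 6 fell (median log2FC -0.07), and of 18 heat shock genes 0 rose and 10 fell (median -0.18). Per2 fell by 0.63 (SE 0.09), Cry1 by 0.47 (SE 0.07) and Per1 by 0.30 (SE 0.09) on the log2 scale. Cirbp rose by 0.27 (SE 0.05) and Rbm3 by 0.16 (SE 0.05). In the test of light minus dark phase, 2120 genes passed (15%, with 8.42% higher and 6.58% lower), among them 8 clock genes higher and 1 lower, 11 heat shock genes higher and 0 lower, and both cold-inducible genes lower. Named by size in that test were Spry4 (1.58, SE 0.24), Eomes (1.37, SE 0.24), the orphan nuclear receptor Nr4a2 (1.30, SE 0.25), Nes (-1.17), Uba7, an enzyme of ISG15 conjugation (-0.84, SE 0.21), Abi3 (-0.83, SE 0.18) and Fgd2 (-0.79, SE 0.16). The difference between phases was 1.08 (SE 0.13, adjusted p = 1.23e-07) for Per2, 0.66 (SE 0.13, adjusted p = 0.000435) for Per1 and 0.44 (SE 0.12, adjusted p = 0.00701) for Hsph1. Running numbers differed between schedules in the same way in the dark phase, where 15 of 18 ad libitum and 0 of 17 light-feeding libraries were numbered up to 46. Gfap (-0.17, SE 0.16) and Cldn5 (0.015, SE 0.17) were not called there.

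**Figure D5:**
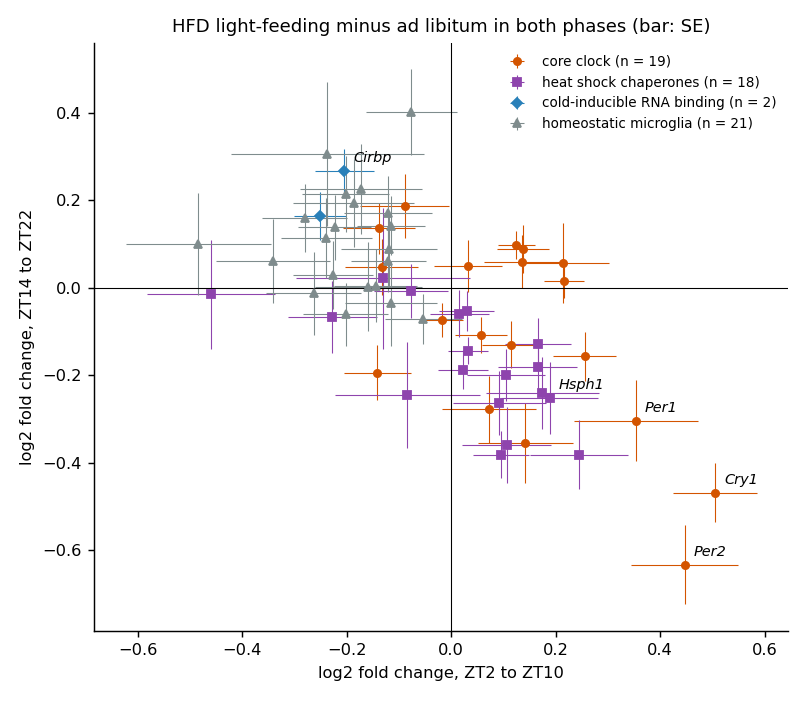
Log2 fold change of HFD light-feeding against ad libitum in the light phase (x axis) and in the dark phase (y axis), with SE bars, for core clock genes (orange circles, n = 19), heat shock chaperones (purple squares, n = 18), cold-inducible genes (blue diamonds, n = 2) and homeostatic microglia markers (grey triangles, n = 21). Per1, Per2, Cry1 and Hsph1 lie at lower right, above 0 in the light and below 0 in the dark phase (Per2 0.45 and -0.63), and Cirbp at upper left.

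The effect of light-feeding in the light phase also differed by diet. On chow it called 3188 genes (22.5%), 1416 higher and 1772 lower, and the test of HFD minus chow called 3456 genes (24.4%), 1929 higher and 1527 lower. On FPKM values this split turned to 1351 higher and 2069 lower. Astrocyte markers rose on chow, 14 of 16 with 0 falling (median log2FC 0.67), where they fell on HFD, and 15 of the 16 differed between diets (median -1.08). Gfap rose by 0.70 (SE 0.20) on chow, and its HFD minus chow difference was -1.42 (SE 0.29, adjusted p = 0.000311). Chow and HFD titles had separate series of running numbers, which do not compare between diets. On chow the light-feeding libraries were numbered 56 to 96 (median 82.5) and the ad libitum libraries 14 to 152 (median 113). The chow ad libitum numbers lay on both sides of the light-feeding ones and among them. The part of running number in the difference between diets was not tested. Per2 rose on chow by 0.60 (SE 0.14) and Cry1 by 0.23 (SE 0.08), and no difference between diets was called for Per1, Per2, Cry1 or Hsph1 (adjusted p = 0.384, 0.627, 0.0526 and 0.262). Irs2 had a log2FC of -0.10 (SE 0.08) on chow, not called, and differed between diets by 0.53 (SE 0.11, adjusted p = 0.000427). Irs1 differed by 0.69 (SE 0.16, adjusted p = 0.000825). The largest differences between diets were higher on HFD for Zfp27 (1.33, SE 0.49), Pigm (1.32, SE 0.26), Pclo (1.16, SE 0.23) and Sowahb (1.03, SE 0.20), and lower for Itih3 (-1.60, SE 0.27), Cldn5 (-1.52, SE 0.35), Igf2 (-1.46, SE 0.27) and the IGF-binding protein gene Igfbp2 (-1.45, SE 0.27), within the rule for named genes.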

How the data were processed

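Strand-specific mRNA libraries were sequenced on DNA nanoballs, per the labels' protocols. The authors deposited expected counts per gene (8.03% of entries over all 200 libraries were not whole) and FPKM values. Rnor 6.0 is the build per the submitters' processing notes. Neither the aligner nor the counting tool is given in the sources used here. Where raw counts had been foreseen, the expected counts were rounded. Groups came from GEO's labels. Genes with a mean of at least 1 CPM over the 32 libraries were kept (14139). TMM-normalised counts were tested with edgeR 4.0.16 quasi-likelihood fits (limma 3.58.1, R 4.3.3), schedule with time as a factor and each time alone, Benjamini-Hochberg adjusted over all genes and called under 0.05. DESeq2 1.42.0 and limma on log2(FPKM + 0.1) were alternatives. Interaction fits tested schedule by time, phase and diet. The fits were tested on simulated data. Of 496 library pairs none held identical values.

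Named genes were the 10 largest changes in each direction over the light phase among called genes with a symbol, a mean of at least 5 CPM and the same sign at each time, 4 per direction in other comparisons (6 of smallest p between times, up to 2 where none was called), up to 4 of smallest p per list, and all core clock genes. Members and lists were chosen with earlier results of these data known. Comparisons with dark-feeding at single times, splits of ZT2 by running number, running number within ad libitum at ZT10 or at ZT14 and ZT18, and list counts under other settings were chosen after seeing the data.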

Additional observations from a re-analysis of the deposited data

Results flagged for a closer look

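Within groups of 4 to 10 libraries, 6 of 132 groups over 21 genes held a library far from the rest, where chance gives about 1 in 20. These were Cry1 (21.72 CPM, title 78), Tef (221.8 CPM, title 80) and Cirbp (349.1 CPM, title 77) in light-feeding libraries at ZT6, Pdk4 (2.824 CPM, title 111) in light-feeding libraries at ZT10, and Irf8 (63.26 CPM) and Prf1 (10.94 CPM) in the ad libitum library numbered 45 at ZT6.

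The light-feeding effect differed between light and dark phase by test for 18 described genes, given as light minus dark log2FC. It was higher in the light phase for Per1 (0.658), Per2 (1.079), Cry1 (0.975), Tef (0.199), Rora (0.411), Irs1 (0.508), Irs2 (0.52), Hsph1 (0.441), Spry4 (1.58), Pdk4 (1.199) and Pclo (0.922). It was lower for Cirbp (-0.473), Rbm3 (-0.416), Nes (-1.172), Csf1r (-0.44), Irf8 (-0.403), C1qb (-0.379) and Cldn5 (-0.735).

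Between diets the light-phase effect differed by test for 9 genes, given as HFD minus chow: Tef (0.386), Rora (0.508), Irs1 (0.686), Irs2 (0.53), Pclo (1.163), Nes (-0.534), Gfap (-1.42), Cldn5 (-1.516) and Igf2 (-1.457). Between the 3 times it differed for Per1 (adjusted p = 0.00862), Cry1 (0.017), Hsph1 (0.0206), Spry4 (0.0426) and Nes (0.0447).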

How the results depend on the processing

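The 1375 genes called over the light phase became 1 without ZT2, 755 without ZT6 and 2810 with ad libitum numbers up to 46 only. They became 878 and 8 with light-feeding numbers up to 90 and above 90 only. With the number, which nearly separated the schedules, as a linear covariate they became 0. With marker scores of 4 other cell types as covariates they became 152. Under those scores Cldn5 (0.02) and Slc1a2 (0.04) changed sign, and both are among the genes averaged into the scores. DESeq2 gave 1688, no filter 1179 and FPKM 1131. ZT2 gave 2336 with DESeq2 and 1782 with FPKM. ZT6 gave 204 with DESeq2, 1 with limma on FPKM and 4 in a fit of all 32 libraries, and ZT10 gave 1 with DESeq2. The test between times gave 190 with DESeq2 and 28 without the filter. Against dark-feeding, ZT6 alone gave 0 and ZT10 alone 2. Within ad libitum, running number gave 356 at ZT14 and ZT18. Leaving out each library in turn gave 983 (without number 37) to 1889 (without 45) over the light phase, 1697 to 2191 at ZT2, 0 to 163 at ZT6 and 0 to 3 at ZT10. No paired analysis was possible because the labels give no replicate numbers, only a running number in the title that no ad libitum library shares with a light-feeding one.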
